A study of Homo sapiens with 34 samples.

Results

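IGF-binding proteins, IGF receptors and the insulin receptor substrates set how a cell meets insulin-like growth factors, and 10 of their genes were followed here in cells cycling at different sizes. They were IGFBP2, IGFBP3, IGFBP4, IGFBP5, IGFBP6, IGFBP7, IGF1R, IGF2R, IRS1 and IRS2, of 19041 genes in the tables. The 10 were chosen by name with earlier results of these libraries in view, among them the difference in level between the lines, so that this difference is described below without a test. All cells were hTERT-RPE1, an immortalised human line from retinal pigment epithelium, measured by SLAM-seq (a pulse and chase with a thiol-bearing uridine analog, s4U, read as T>C conversions in 3′ end libraries). The knockdown line, whose genotype is an inducible knockdown of CCND1 (cyclin D1), gives large cells in the study's account. The overexpression line, whose genotype lists an inducible knockdown together with an inducible overexpression of CCND1, gives small cells. By the study's methods both lines express an inducible shRNA against the 3′ UTR of CCND1, and the overexpression line adds an allele that this shRNA spares. Every sample of both lines received doxycycline (0.5 µg/mL), and no uninduced cells were analysed here. From day 4 the cells were pulsed for 24 h with 10 µM s4U and chased in 1 mM uridine for 0 to 1440 min, while unlabelled cells were given uridine alone. The constructs were integrated by lentivirus and the lines were kept as selected populations.

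IGFs circulate bound to IGFBPs, secreted proteins that carry the ligands, limit their access to receptors and are cut by proteases that release them. IGF1R is the tyrosine kinase that transmits the growth signal, IGF2R (the cation-independent mannose 6-phosphate receptor) takes IGF2 to lysosomes and sorts lysosomal enzymes, and IRS1 and IRS2 are the adaptors through which IGF1R and the insulin receptor reach PI3K and AKT. FOXO transcription factors are restrained by AKT.

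There were 34 libraries, 17 per line, which form 4 courses, each the libraries of 1 line and replicate number. Whether courses were grown as separate cultures is not in the labels, so that p-values measure the spread between libraries, which may be technical. Each library held 14712332 to 44480703 reads in 3′ UTRs, and levels are given as CPM, the count scaled to these reads. Since the libraries are primed at the poly(A) tail, the CPM counts transcript ends and needs no division by length. In bulk samples fewer cells expressing a gene and less RNA per cell cannot be told apart. Against the rest of their line, 3 libraries stood apart (r of 0.864 to 0.918 across 8398 genes, 0.966 or more in the others): in overexpression course 1 the unlabelled and the 720 min library, and in knockdown course 1 the unlabelled one. CCND1 itself had 78.9 to 197 CPM in knockdown and 41.3 to 84.1 CPM in overexpression libraries. The median was higher in the line labelled knockdown, at 162 CPM against 58.8 CPM. Both lines express the shRNA, no uninduced cells were analysed, and the transgene of the overexpression line need not carry this 3′ UTR. These reads thus check neither label. Of 9 markers of retinal pigment epithelium, MITF and OTX2 averaged 1 CPM or more in both lines. SERPINF1 was at 0 in both, RLBP1 at 0 in overexpression libraries, and the remainder averaged under 1 CPM. Of 6 fibroblast markers COL1A1 and THY1 were present, and the summed level of the 6 was 445 to 665 CPM in knockdown and 246 to 411 CPM in overexpression libraries. THY1 carried most of this sum, with medians of 529 CPM in knockdown and 301 CPM in overexpression libraries, while COL1A1 had medians of 27.2 and 24.2 CPM. Of 4 epithelial markers KRT8 and KRT18 were present, while CDH1 and EPCAM had at most 0.489 and 0.558 CPM in any library. KRT8 was also higher by median in knockdown libraries, at 513 CPM against 281 CPM in overexpression libraries. So were KRT18, at 573 CPM against 316 CPM, and MITF, at 76.9 CPM against 38.7 CPM. OTX2 went the other way, with medians of 1.77 CPM in knockdown and 2.54 CPM in overexpression libraries. THY1, KRT8, KRT18 and MITF differed in the same direction as IGFBP5 and IGFBP3 below, and their part in those levels was not tested. Markers of endothelium, blood cells and keratinocytes summed to at most 1.67 CPM.

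IGFBP5 and IGFBP3 were the members whose libraries did not overlap between the lines. IGFBP5 is a binding protein that also adheres to extracellular matrix. Its level ran from 157 to 255 CPM (median 204) in the 17 knockdown libraries, against 10.7 to 27.3 CPM (median 17.3) in the 17 overexpression libraries. Every knockdown library was thus far above every overexpression library, and the gap exceeded the spread within either line. Over the 6 samples present in all courses, IGFBP5 averaged 208 ± 11.1 CPM in knockdown and 19.9 ± 1.09 CPM in overexpression courses (SD, n = 2 each), which is 3.39 on the log2 scale (standard error, SE, 0.13). IGFBP3 encodes the main IGF carrier of serum. It ran from 691 to 1522 CPM (median 1009) in knockdown libraries, against 173 to 372 CPM (median 255) in overexpression libraries. Its course means were 1072 ± 26.3 CPM in knockdown and 255 ± 6.25 CPM in overexpression (SD, n = 2 each), a log2 difference of 2.07 (SE 0.12). Among 13165 genes tested for level, 1.29% lay higher in every knockdown library than in every overexpression library and 1.15% lower. Of the 9 members among them, 2 were in the higher class and 0 in the lower, and since this contrast chose the members nothing is read from these counts.

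These libraries are primed at the poly(A) tail, but read positions within the 3′ UTR intervals were not examined. Whether reads come from the annotated ends was thus not tested. The last bases of the annotated 3′ UTR are shown for the members with the largest and a reversed difference (hg38, transcript strand). The match to the poly(A) signal is in capitals.
IGFBP5, chr2:216672109-216672138, minus strand: aagcatttatttAATAAAgttatgcattca
IGFBP3, chr7:45912252-45912281, minus strand: ttattttattatAATAAAatcctgaaaggg
IRS2, chr13:109752700-109752729, minus strand: atcttttgaacaAATAAAatcagtgcaatt
Each lies in the terminal 3′ UTR of its gene, and the signal starts 22, 25 and 20 bases before the annotated end of IGFBP5, IGFBP3 and IRS2. Searching AATAAA and ATTAAA on the transcript strand in the last 50 bases, 8 members had a match, while IGFBP4 and IGF2R had none. Of intervals of like length (0.8 to 1.2 times), 82.4% held such a match for IGFBP5, 73.1% for IGFBP3 and 81.0% for IRS2. No member shared an interval with another gene. A single interval carried all reads of IGFBP5 (chr2:216672105-216676750) and IRS2 (chr13:109752698-109756303), and 96.7% to 100% of the reads of each other member, with IGF2R the lowest.

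**Figure D1:**
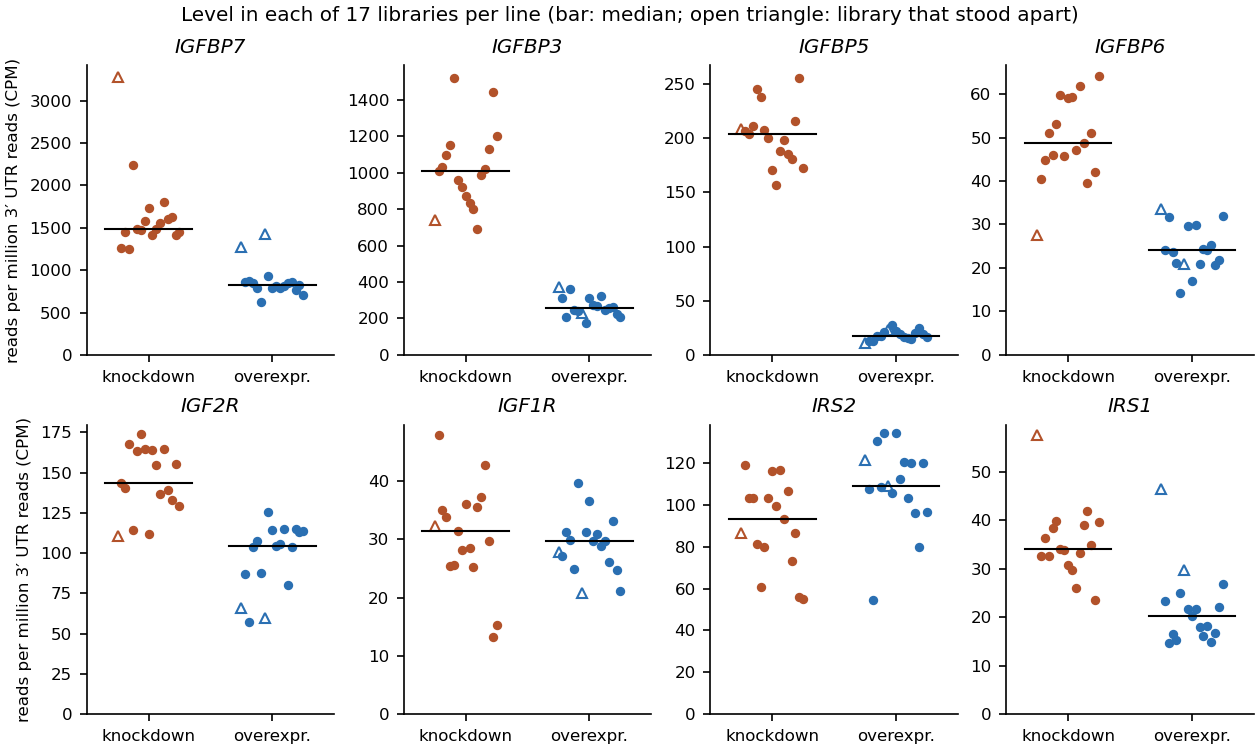
Level (CPM of 3′ UTR reads, linear axes from 0) of 8 members in each library, with the 17 knockdown libraries on the left and the 17 overexpression libraries on the right of each panel; bars are medians and open triangles are the 3 libraries that stood apart. IGFBP5 (knockdown median 204 CPM, overexpression median 17.3 CPM) and IGFBP3 (1009 and 255 CPM) are separate between the lines, while the other 6 members overlap.

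The other binding proteins differed less, and 2 of them differed in the same direction. IGFBP7, which binds IGFs weakly and is secreted in large amounts by many adherent cells, ran from 1245 to 3285 CPM (median 1492) in knockdown and 621 to 1424 CPM (median 831) in overexpression libraries. The ranges overlapped through overexpression libraries that stood apart. Without the 3 such libraries, IGFBP7 was higher in every knockdown library, as were 2.17% of all genes, and 2.7% were lower. Its log2 difference was 0.99 (SE 0.13). IGFBP6, which prefers IGF2 to IGF1, ran from 27.5 to 64.1 CPM (median 48.8) in knockdown and 14.3 to 33.5 CPM (median 24.2) in overexpression libraries, a log2 difference of 1.03 (SE 0.14). The lowest knockdown and the highest overexpression value were both from unlabelled libraries that stood apart, and without the 3 libraries the ranges no longer overlapped. IGFBP2 was near the limit of detection, with 629 reads in all 34 libraries, 0 to 1.52 CPM in knockdown and 0 to 4.95 CPM in overexpression libraries. Its course means were 0.458 ± 0.0487 CPM in knockdown and 1.13 ± 0.26 CPM in overexpression (SD, n = 2 each). IGFBP4 had 6 reads in all, from 3 knockdown libraries, and a count of 0 allows up to 3 reads per library. It did not pass the filter on low counts, so that 9 of the 10 members were tested in what follows.

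Among receptors and adaptors the lines were closer. IGF2R ran from 111 to 174 CPM (median 144) in knockdown and 57.1 to 125 CPM (median 104) in overexpression libraries, with a log2 difference of 0.48 (SE 0.13). IRS1 ran from 23.5 to 57.6 CPM (median 34.1) in knockdown and 14.7 to 46.5 CPM (median 20.3) in overexpression libraries, with a log2 difference of 0.71 (SE 0.15). Both overlapped between the lines also without the 3 libraries that stood apart. IGF1R ran from 13.3 to 48.0 CPM (median 31.3) in knockdown and 20.7 to 39.7 CPM (median 29.7) in overexpression libraries. Its log2 difference of 0.11 (SE 0.14) was smaller than its SE, although in the 0 min libraries alone it was 0.55 (SE 0.21). IRS2 was the only well-measured member below 0, with a log2 difference of -0.33 (SE 0.12). It ran from 55.0 to 119 CPM (median 93.2) in knockdown and 54.6 to 134 CPM (median 109) in overexpression libraries. In the 0 min libraries alone this difference was 0.09 (SE 0.16), while at 720 min IRS2 held 60.6 and 56.1 CPM in knockdown courses, against 109 and 120 CPM in overexpression courses. The 109 CPM came from the library of overexpression course 1 that stood apart.

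**Figure D2:**
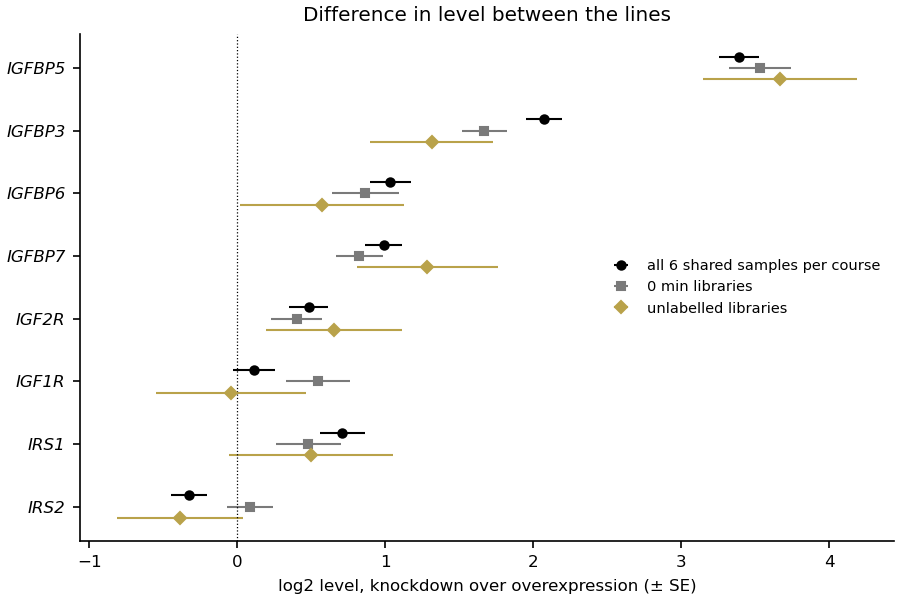
Log2 difference in level of 8 members, knockdown over overexpression, with its SE, for the 6 samples shared by all courses (circles), the 0 min libraries alone (squares) and the unlabelled libraries alone (diamonds). IGFBP5 lies at 3.39, 3.53 and 3.67 and IGFBP3 at 2.07, 1.67 and 1.31, whereas IRS2 lies at -0.33, 0.09 and -0.39. Among the unlabelled libraries, those of the first course of each line stood apart.

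The genes around these members were taken from lists of the pathway. Of the other ligands, binding proteins and receptors, IGF1 had at most 0.139 CPM and INS, IGFBP1, INSRR and IRS4 had 0 reads in all libraries. The insulin receptor gene INSR had 10.9 to 23.0 CPM in knockdown and 16.3 to 32.7 CPM in overexpression libraries. Of 8 measured IGFBP proteases and their inhibitors, 1 was higher in every knockdown library and 0 were lower, beside 1.29% and 1.15% of all genes. The median log2 difference of these 8 was 0.42, against -0.01 over all genes. This was PAPPA, the metalloprotease that cuts IGFBP4 and IGFBP5. PAPPA ran from 47.0 to 89.6 CPM (median 61.8) in knockdown and 15.9 to 30.6 CPM (median 23.4) in overexpression libraries, a log2 difference of 1.48 (SE 0.15). Its inhibitors STC1 and STC2 had medians of 787 and 2724 CPM in knockdown and 467 and 1836 CPM in overexpression libraries, with overlapping ranges. None of the 19 measured adaptors and inhibitors of the receptors (median 0.05) separated in all 34 libraries. Nor did any of the 33 genes of PI3K, AKT and mTOR (median -0.12). Of all genes, 1.29% lay higher in every knockdown library and 1.15% lower. Without the 3 libraries that stood apart, 1 of the 33, RHEB, was lower in every knockdown library, as were 2.7% of all genes. Its medians over all libraries were 168 CPM in knockdown and 251 CPM in overexpression.

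Of 16 measured FOXO factors and targets, 11 had a log2 difference above 0 and 5 below (median 0.36), and none separated in all 34 libraries (1.29% and 1.15% of all genes did). TXNIP, FBXO32, PIK3IP1, BCL2L11 and FOXO1 were named after their values were seen. TXNIP, an arrestin that limits glucose uptake, ran from 12.3 to 90.3 CPM (median 35.4) in knockdown and 0 to 16.6 CPM (median 5.98) in overexpression libraries. FBXO32, a ubiquitin ligase subunit known from muscle atrophy, had medians of 353 CPM in knockdown and 68.7 CPM in overexpression libraries. PIK3IP1, an inhibitor of PI3K, had medians of 10.7 CPM in knockdown and 2.18 CPM in overexpression libraries. Others of the list were lower by median in knockdown libraries, among them BCL2L11, at 3.02 CPM against 7.49 CPM, and FOXO1, at 19.5 CPM against 26.0 CPM. The ranges of TXNIP, FBXO32 and PIK3IP1 overlapped. Those of TXNIP did not without the libraries that stood apart, where 2.17% of all genes were higher in every knockdown library.

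Levels through the chase were then tested in the 20 labelled libraries at 0, 180, 360, 720 and 1440 min, with edgeR's quasi-likelihood test adjusted over all 12237 genes tested. None of the 9 members tested was called at any time. The share of all genes called was 0.229% at 180 min, 0.335% at 360 min, 1.5% at 720 min and 1.07% at 1440 min. IRS2 and IGF1R had the lowest estimates among the well-measured members. For IRS2 at 1440 min, knockdown courses 1 and 2 held 80.0 and 55.0 CPM, against 119 and 116 CPM at 0 min, and overexpression courses 106 and 96.8 CPM, against 107 and 112 CPM at 0 min. All 4 courses were below their 0 min library, the knockdown courses by more. The log2 change was -0.57 (SE 0.19, adjusted p = 0.189), and in a fit of the 0 and 1440 min libraries alone it was -0.53 with an adjusted p of 0.0278. Over 11 alternatives the adjusted p of IRS2 at 1440 min ran from 0.0278 to 0.848 and the sign was kept in all 11. IGF1R at 720 min was at 25.7 and 13.3 CPM in knockdown courses, against 48.0 and 36.0 CPM at 0 min. In overexpression courses it was at 20.7 CPM, in the library that stood apart, and 24.7 CPM, against 27.2 and 29.7 CPM at 0 min. The log2 change was -0.76 (SE 0.25, adjusted p = 0.15), and without the filter on low counts it was called at an adjusted p of 0.017. Over the 10 alternatives it ran from 0.017 to 0.344.

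In the chase IGFBP3 was the member whose change differed most between the lines in relation to its SE, and this difference did not pass the test. At 720 min IGFBP3 held 1522 and 1443 CPM in knockdown courses 1 and 2, against 1009 and 874 CPM at 0 min. In overexpression courses it held 228 and 226 CPM at 720 min, against 312 and 274 CPM at 0 min. The 228 CPM came from the 720 min library of course 1, which stood apart. Both knockdown courses had their highest value at 720 min, and both overexpression courses their lowest at 1440 min, at 173 and 207 CPM. The change between 0 and 1440 min differed between the lines by a log2 of 0.83 (SE 0.24, adjusted p = 1.0 by edgeR), and over 11 alternatives by 0.56 to 1.10 with adjusted p of 0.222 to 1.0. For IRS2 the same difference was -0.69 (SE 0.32, adjusted p = 1.0). Of 12869 genes 0.0% were called in this interaction, and 357 had an unadjusted p under 0.05. DESeq2 also called 0. IGFBP5 held 208 and 173 CPM at 1440 min in knockdown courses, against 207 and 171 CPM at 0 min, and 27.3 and 16.8 CPM in overexpression courses, against 13.0 and 19.3 CPM at 0 min. Only overexpression course 1 was far from its 0 min value, and over both lines the log2 change of IGFBP5 was 0.14 (SE 0.16, adjusted p = 0.843).

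**Figure D3:**
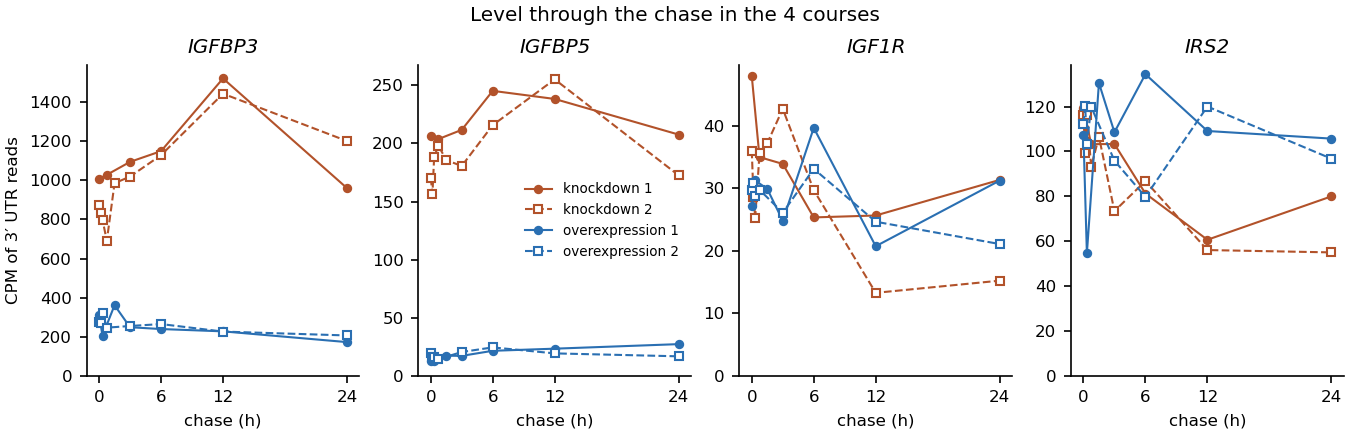
Level (CPM of 3′ UTR reads, linear axes from 0) of IGFBP3, IGFBP5, IGF1R and IRS2 at each labelled time of the chase (hours) in knockdown courses 1 and 2 and overexpression courses 1 and 2. IGFBP3 reaches 1522 and 1443 CPM in knockdown courses at 12 h, against 228 and 226 CPM in overexpression courses, and IRS2 is lower in the knockdown courses at 24 h. The 12 h library of overexpression course 1 stood apart from its line.

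Among the pathway lists, 1 protease inhibitor and 1 regulator of mTOR were called between 0 and 1440 min, both higher, of 8 proteases and inhibitors and 33 genes of PI3K, AKT and mTOR, where 1.07% of all genes were called. STC1 held 1318 and 1556 CPM in knockdown courses 1 and 2 at 1440 min, against 667 and 587 CPM at 0 min. In overexpression courses STC1 held 502 and 633 CPM at 1440 min, against 377 and 364 CPM at 0 min, and it was higher in 4 of 4 courses (log2 0.83, SE 0.20, adjusted p = 0.0412 by edgeR). DDIT4, a stress-induced inhibitor of mTOR complex 1, held 52.8 and 22.1 CPM in knockdown courses at 1440 min, against 13.0 and 8.36 CPM at 0 min. In overexpression courses DDIT4 held 22.5 and 21.2 CPM at 1440 min, against 5.44 and 7.39 CPM at 0 min (log2 1.70, SE 0.34, adjusted p = 0.00986 by edgeR). Without knockdown course 1, knockdown course 2 or overexpression course 2 the log2 changes were 0.80, 0.67 and 0.86 for STC1 (adjusted p of 0.383, 0.493 and 0.181) and 1.54, 1.81 and 1.81 for DDIT4 (0.119, 0.095 and 0.0541), so that neither was called. Both were called in the other 8 alternatives, among them that without overexpression course 1 (adjusted p of 2.46e-05 for STC1 and 0.00329 for DDIT4). The other lists had 0 calls, of 1 ligand or receptor gene, 19 adaptors and 16 FOXO factors and targets.

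The s4U label itself was compared at 0 min over unlabelled, 4 libraries against 4. No member was called by edgeR, and of 11826 genes 0.0% were called, with 402 at an unadjusted p under 0.05 and 2 called by DESeq2. The lowest estimates among the well-measured members were those of IRS1, -0.53 (SE 0.29, adjusted p = 0.887), and IGFBP7, -0.48 (SE 0.26, adjusted p = 0.887). For IGFBP7 the 0 min libraries of knockdown courses 1 and 2 held 1262 and 1740 CPM, against 3285 and 1580 CPM unlabelled, and those of overexpression courses 861 and 817 CPM, against 1272 and 789 CPM unlabelled. The high unlabelled values were those of the libraries that stood apart. Without the first courses of both lines the IGFBP7 estimate was 0.12.

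The T>C rate at 0 min, the share of covered T bases read as C, ordered the members differently in the lines. IGFBP5 had 0.79% (Wilson 95% interval 0.752% to 0.83%) and 0.965% (0.923% to 1.01%) in knockdown courses, where all 3′ UTR reads together had 0.891% and 0.849%. In overexpression courses IGFBP5 had 0.352% (0.259% to 0.479%) and 0.457% (0.358% to 0.584%), where all reads together had 0.963% and 0.933%. The intervals did not overlap between the lines at 0 min. They take each covered T base as independent, although a read covers many, so that they are too narrow even for counting error. Molecular identifiers are not described for these libraries. The lack of overlap is thus no test of the lines. The overexpression values rest on 40 and 64 conversions, and later rates scattered more widely than these intervals. In overexpression course 1 IGFBP5 had 0.0179% at 20 min and 0.725% (0.604% to 0.87%) at 180 min. In overexpression course 2 it had 0.618% at 10 min and 0.264% at 45 min. IGFBP7 ran the other way, with 0.734% and 0.664% in knockdown and 0.964% and 0.819% in overexpression courses. IGFBP3 had 1.16% and 1.09% in knockdown and 1.32% and 1.21% in overexpression courses, above the rate of all reads in each library. IRS2 had 0.92% and 0.965% in knockdown and 0.979% and 1.06% in overexpression courses. In unlabelled libraries these 4 members were at 0% to 0.0853%.

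From the loss of this label the members spanned a wide range of half-lives, which are given as values without a test, from 2 courses per line. IGFBP7 was the longest, at 28.0 and 26.4 h in knockdown and 17.6 and 25.4 h in overexpression courses, above the 99th percentile of genes with a half-life in each course. These values are near or beyond the 24 h of chase and rest on extrapolation. After 1440 min IGFBP7 kept 54.9% and 49.7% of its 0 min rate in knockdown and 37.3% and 53.1% in overexpression courses. IGFBP3 had 8.82 and 7.75 h in knockdown and 6.94 and 6.20 h in overexpression courses, a log2 ratio of 0.34. The course medians over all genes were 4.31 and 5.05 h in knockdown and 4.63 and 4.11 h in overexpression, and the median log2 ratio was 0.21 over the 3314 genes fitted in every course. Without the 720 min library of overexpression course 1 the ratio of IGFBP3 was 0.16 and that of all genes 0.10. The log2 difference in level of IGFBP3 was 2.07, and the part of half-life in it was not tested. Its level also rose in knockdown and fell in overexpression courses between 0 and 720 min. The T>C rate is a share of all covered T bases, so that the fit does not separate loss from new transcripts when the level changes. IGFBP5 had 14.7 and 9.79 h in knockdown courses and 4.85 h in overexpression course 2. In overexpression course 1 its fit had an R2 of 0.215, under the minimum of 0.6, at 10.7 to 27.3 CPM. The line order of IGFBP5 depended on the fit: with times from 180 min on it had 9.49 and 7.40 h in knockdown and 1.90 and 12.02 h in overexpression courses, and a straight line through the log ratio gave 8.27 h in overexpression course 2. The rates of IGFBP6 could not be fitted in any course (R2 of 0.318 at most), and IGFBP2 and IGFBP4 had too few times at 1 CPM.

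**Figure D4:**
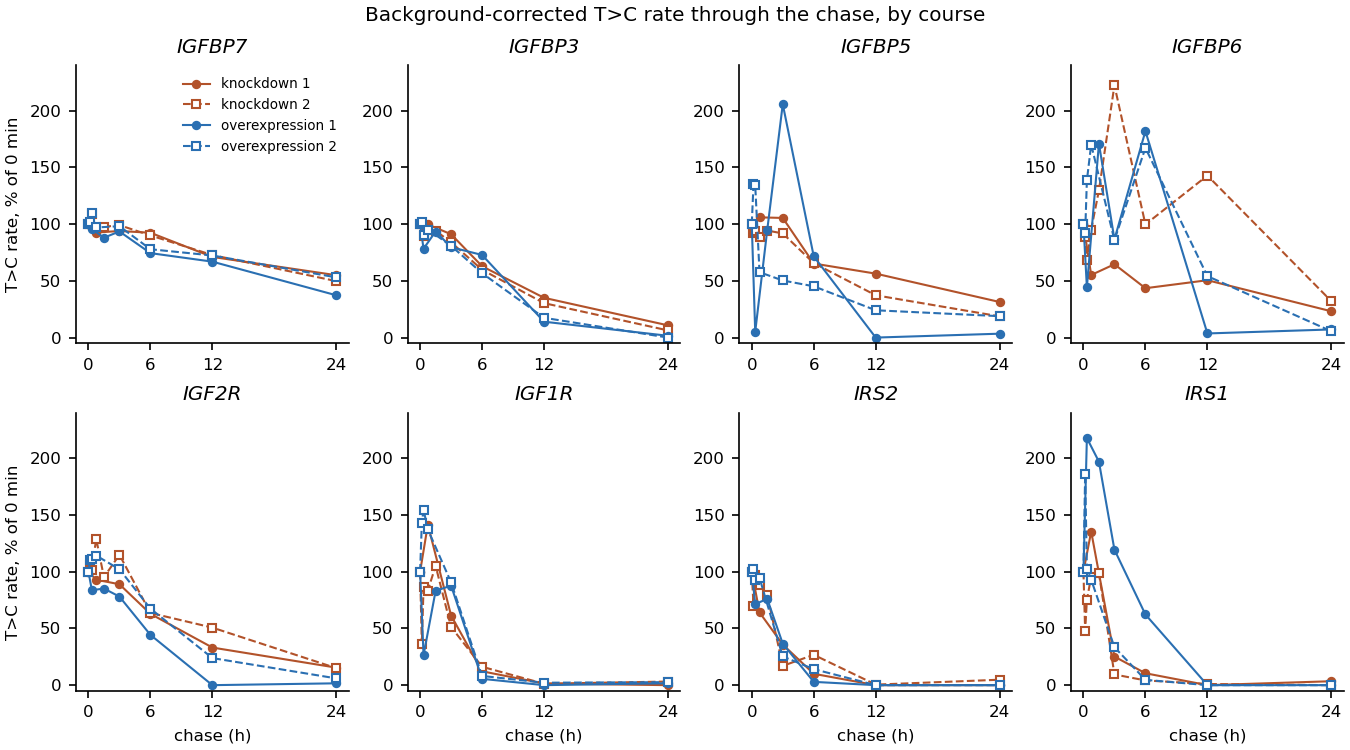
Background-corrected T>C rate of 8 members as a percentage of its 0 min value (linear axis) against chase time in hours, for knockdown courses 1 and 2 and overexpression courses 1 and 2. At 24 h IGFBP7 keeps 37.3% to 54.9% in the 4 courses and IRS2 at most 4.8%, and IGFBP6 scatters without a smooth course.

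IGF2R had 8.78 and 12.4 h in knockdown courses, at the 86.8 and 94.2 percentile of genes. In overexpression courses it had 4.71 and 8.66 h, at the 51.4 and 90.4 percentile. It was thus lost slowly except in overexpression course 1, where it was near the median. The lowest value came from overexpression course 1 and was 5.70 h without its 720 min library, in which the corrected rate was 0. IGF1R, IRS1 and IRS2 were lost faster. IGF1R had 3.56 and 3.17 h in knockdown courses and 4.65 h in overexpression course 2, and IRS1 had 2.46 and 2.01 h in knockdown courses and 2.40 h in overexpression course 2. Both were under the R2 minimum in overexpression course 1. With times from 180 min on, IGF1R had 1.30 and 1.80 h in knockdown and 0.754 and 0.865 h in overexpression courses, so that its line order turned. IRS1 had 1.58 and 0.906 h in knockdown and 6.88 and 1.75 h in overexpression courses when the 5 times of all courses were used. IRS2 had 1.73 and 2.28 h in knockdown and 2.06 and 2.06 h in overexpression courses, at the 11.0 to 13.8 percentile of genes. After 360 min IRS2 kept 10.0% and 26.7% in knockdown and 2.91% and 14.1% in overexpression courses. In these fits the lines of IRS2 differed by less than the spread between courses of the knockdown line. With times from 180 min on IRS2 had 1.61 h in knockdown course 1 and 0.822 and 2.84 h in overexpression courses. Fitted over all times, IGFBP3 and IGFBP7 lay above the course median in every course, and IRS2 below it. IGFBP5 lay above it and IRS1 below it in each course with a fit, which leaves out overexpression course 1. In overexpression course 2 IGFBP5 was at the 61.4 percentile. With the 5 times of all courses IRS1 was above the median in overexpression course 1, at the 82.2 percentile.

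**Figure D5:**
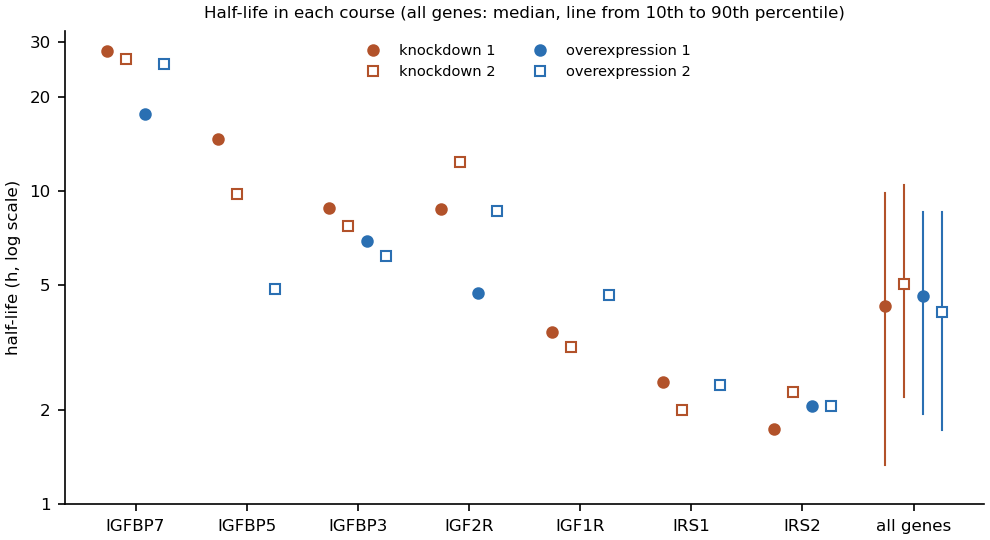
Half-life (hours, log axis) of 7 members in knockdown courses 1 and 2 and overexpression courses 1 and 2, with the median and the 10th to 90th percentile over all genes at the right; courses whose fit had an R2 under 0.6 have no point. IGFBP7 lies at 17.6 to 28.0 h and IRS2 at 1.73 to 2.28 h.

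Since AU-rich pentamers in 3′ UTRs are known to mark some unstable mRNAs, ATTTA was searched on the transcript strand of each member's main interval, overlapping matches counted. The windows of up to 30 bases with the most matches are shown for the short-lived IRS1 and IRS2 and the long-lived IGFBP7 and IGFBP5, with ATTTA in capitals (hg38).
IRS2, chr13:109754230-109754259, minus strand: tgcaatATTTAcatttttaATTTAgtttac
IRS1, chr2:226735788-226735817, minus strand: aaatATTTAacataggttttgATTTAtatg
IGFBP7, chr4:57031122-57031151, minus strand: tacaaaaATTTAttatatATTTAcagaaga
IGFBP5, chr2:216672168-216672197, minus strand: tactATTTAttcaacttataATTTAtgtta
Each window held 2 matches. The interval of IRS2 (3606 bases) held 11 matches or 3.05 per kb, and 29.4% of intervals of like length held at least as many. That of IRS1 (4934 bases) held 13 or 2.63 per kb (38.2%). That of IGFBP7 (544 bases) held 3 or 5.51 per kb (10.6%), and that of IGFBP5 (4646 bases) held 8 or 1.72 per kb (63.4%). The ATTTA density of these was thus highest in the member with the longest half-life, where it rests on 3 matches in 544 bases. IGF1R held 12 matches, IGF2R 4, IGFBP3 2 and IGFBP6 0. Of intervals of like length, 96.7% held at least 1 match for IRS2, 98.5% for IRS1, 49.8% for IGFBP7 and 98.3% for IGFBP5. The presence of an ATTTA match thus sets none of them apart. The longer motif TATTTAT was also counted, with 0 matches in IGFBP7, 1 each in IRS1 and IRS2, and 2 in IGFBP5. The interval of IGFBP7 is the shortest of those shown. Whether either motif goes with half-life was not tested.

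Within the lines, after each line's mean was taken off, the genes most like IGFBP5 over the 34 libraries were URB1, PLXNA2, SAMD8, ROCK2 and INTS8 (r of 0.668 to 0.784 on log2(CPM + 1), of 8397 genes at a mean of 10 CPM or more). Those most like IRS2 were RIC1, CDC42EP3, PURB, PDAP1 and DOP1B (r of 0.655 to 0.666). Among the members themselves the highest r were those of IGFBP7 with IRS1, 0.56, and of IGF1R with IRS2, 0.50, and the lowest was that of IGFBP7 with IGF2R, -0.59. The libraries of a course may share a culture and the libraries differ in depth, and 3 of them stood apart with high IGFBP7 and IRS1 and low IGF2R, so these values are descriptions of these libraries.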

How the data were processed

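The authors deposited SLAMdunk 0.4.3 tables (hg38) from a sequencing service, which give for each of 71668 3′ UTR intervals raw counts of reads, covered T bases and T>C conversions. The deposited CPM (scaled to mapped reads) and the deposited conversion rate, a fraction, served as checks and in the half-life filter. No source used here names the annotation release. T counts of all intervals equalled those of the hg38 sequence. Intervals were summed by gene symbol, leaving out 1168 that name several genes.

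Counts were tested with edgeR 4.0.16 (limma 3.58.1, R 4.3.3; TMM, filterByExpr, Benjamini-Hochberg threshold 0.05) over all genes, after a check on simulated data, with DESeq2 1.42.0 as an alternative. The line difference used counts summed over the 6 samples shared by all courses and carries no p-value here. Half-lives followed the study's methods in part: the T>C rate minus that of the course's unlabelled library, relative to 0 min, fitted to exp(-Kt) at 1 CPM or more, 4 or more times and an R2 of at least 0.6, without 7814 intervals of over 10% multimapped reads. Setting negative rates to 0, leaving out fits at an end of the range of K and the multimapping filter were choices made here, and the study's removal of early time points with too few labelled genes was not applied. Libraries held 14712332 to 44480703 reads in 3′ UTRs.

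Samples were grouped by line, replicate number and time from the titles. The members, lists and tests were chosen with earlier results of these data known. Besides the members, the rule names up to 4 genes per list with the largest change among those separated or called, and the 5 genes most like IGFBP5 and IRS2. TXNIP, FBXO32, PIK3IP1, BCL2L11, FOXO1, RHEB, INSR, STC2, marker genes and genes named at or near 0 fall outside it and were named after their values were seen. The symbols IGF2 and PIK3R3 name no interval of a single gene and were not analysed here.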

Additional observations from a re-analysis of the deposited data

How the results depend on the processing

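No member was called in any alternative of the chase, label and interaction tests except IRS2 at 1440 min (only the 0 and 1440 min libraries) and IGF1R at 720 min (no filter on low counts). Gene counts moved more. For the chase at 180, 360, 720 and 1440 min, 28, 41, 184 and 131 genes were called, against 44, 114, 408 and 278 with DESeq2 and 64, 95, 583 and 233 without the filter. Without the 720 min library of overexpression course 1 they were 62, 133, 256 and 459, and with the 0 and 1440 min libraries alone 552 at 1440 min. With the course as a replicate block they were 27, 37, 180 and 147, and the interaction and label calls stayed at 0. Libraries of a course deviated together at r of -0.01 to 0.257, too little to pair them by number. Leaving out 1 course gave 5 to 55, 1 to 119, 10 to 221 and 11 to 280 calls, lowest without knockdown course 1 or 2 and highest without overexpression course 1. The interaction called 4 genes without the filter, 2 with the 0 and 1440 min libraries alone, 6 without that 720 min library and 0 to 9 with 1 course left out. The label called 2 with DESeq2, 14 without the filter and 85 without both first courses. Genes separated between the lines numbered 321, against 524 in labelled libraries, 642 without the 3 libraries that stood apart and 472 to 682 with 1 course left out; IGFBP5 and IGFBP3 were separated in each. The label estimate of IGFBP7 turned to 0.12 without both first courses, and the line difference of IRS2 to 0.0857 in the 0 min libraries. The log2 ratio of IGFBP3 half-lives was 0.56 by a straight line through the log ratio. With times from 180 min on, half-lives averaged 8.45 h for IGFBP5 and 1.55 h for IGF1R in knockdown courses, and were 12.02, 0.865 and 1.06 h for IGFBP5, IGF1R and IRS1 in overexpression course 2. With the 5 shared times IGF1R and IRS1 averaged 2.77 and 1.24 h in knockdown courses. A straight line gave 2.81 and 3.01 h for them there, and 8.27 and 1.47 h for IGFBP5 and IRS1 in overexpression course 2. The causes were not tested.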
